A study of Mus musculus with 20 samples.

Results

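The 10 genes described here supply phosphatidylcholine, the main phospholipid of liver membranes and lipoproteins, or run the hepatic cycle of methyl groups that feeds a route to it. They were chosen by gene name, with probes under an older symbol included (Aytl2 for Lpcat1 and Mboat5 for Lpcat3). All 10 genes were found among 27573 named genes on the array, and 17 probes measured them. Chka and Chkb are the choline kinases, Pcyt1a and Pemt act at later or parallel steps of synthesis, Lpcat1 and Lpcat3 place fatty acids on the lipid, Abcb4 exports it into bile, and Mat1a, Gnmt and Bhmt make, use and regenerate methyl donors.

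The arrays measured liver RNA of 20 males, 28 weeks old, with 1 mouse on each single-colour array and 5 mice in each of 4 groups. The groups were LXR alpha/beta double knockout mice on Western diet, wild-type mice on Western diet, knockout mice on normal diet and wild-type mice on normal diet. All mice had a mixed Sv129/C57Bl6J background and were fed for 7 weeks, either normal chow (Teklad Global) or a cocoa butter Western diet. The liver X receptors (LXR) are nuclear receptors that respond to oxidised cholesterol. The knockout is not restricted to a cell type, so that no value here separates the receptors of hepatocytes from those of other liver cells. Pieces of whole liver were used, in which fewer cells of a type and less RNA per cell cannot be told apart.

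Phosphatidylcholine is made in liver by the choline (Kennedy) pathway, in which choline is phosphorylated, activated to CDP-choline and joined to diacylglycerol, and by PEMT, which methylates phosphatidylethanolamine with S-adenosylmethionine. In hepatocytes MAT1A makes S-adenosylmethionine, GNMT passes surplus methyl groups to glycine, and BHMT turns homocysteine back into methionine with betaine, the oxidation product of choline. Hepatocytes secrete the lipid on lipoproteins and, through ABCB4, into bile. LPCAT3, which places polyunsaturated fatty acids in phospholipids, is a known LXR target in mouse liver.

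Levels below are log2 of the processed signal over the 75th percentile of the same array, and differences are log2 differences ± SE from limma with 5 mice per group. A gene was called, and is said to have risen or fallen, where the Benjamini-Hochberg adjusted p over all genes tested lay under 0.05. The probe with the highest mean stood for a gene. Levels of different genes are not set against each other, since probes differ in brightness. The deleted genes followed the labels: Nr1h3 (LXR alpha) lay between -5.44 and -3.74 in knockout livers and between 3.82 and 4.68 in wild-type livers, and Nr1h2 (LXR beta) between -5.75 and -3.57 in knockout livers and between 0.60 and 1.01 in wild-type livers. The 75th percentile used for scaling was 339.7 to 435.1 intensity units on the arrays of knockout livers on Western diet and 170.3 to 330.8 on the 15 others, so that it stood apart in the same group as many results below. On these arrays 53.6% to 67.1% of probes lay well above background. Replicates correlated at 0.952 to 0.991 across genes. All 17 probes passed the filter on dim signals, and each of the 10 genes had a value on all 20 arrays. The number of arrays limits the precision.

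On Western diet, 6 of the 10 genes differed between knockout and wild-type livers: Lpcat1 and Mat1a rose, and Bhmt, Lpcat3, Gnmt and Abcb4 fell. Of all genes tested, 57.7% were called in that comparison (25% higher and 32.7% lower), and the median difference was -0.39 over the 10 genes and -0.16 over all genes. These medians came close to each other with quantile normalization (-0.07 and -0.10) and in the deposited matrix (-0.10 and -0.07). On normal diet 3 genes were called, Lpcat1 and Mat1a higher and Chka lower in knockout livers, against 19.7% of all genes (11.3% higher and 8.39% lower). In knockout livers the Western diet changed 7 of the 10 genes, with 50.4% of all genes called (22.6% higher and 27.8% lower). Chka and Lpcat1 rose there, and Bhmt, Gnmt, Lpcat3, Mat1a and Pemt fell. In wild-type livers 3 of the 10 were called, all lower (Bhmt, Mat1a and Gnmt), against 5.97% of all genes, with 3.25% called higher and 2.71% lower. The diet difference itself differed between the genotypes for 3 genes, Bhmt, Lpcat3 and Gnmt, each lower in knockout livers, where 27.6% of all genes were called (12.9% higher and 14.7% lower). Bhmt and Gnmt were partly saturated on normal diet, as given below. Knockout livers on Western diet enter 3 of these 5 comparisons, so that the comparisons share samples.

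Values of the 5 mice did not overlap between knockout and wild-type livers for 6 of the 10 genes on Western diet (42.3% of all genes) and for 2 on normal diet (14.9%). Between Western and normal diet they did not overlap for 6 of the 10 genes in knockout livers (34.4%) and for 4 in wild-type livers (8.16%). A choice of scaling touched these calls: with arrays scaled by their median, the median difference of all genes between diets in wild-type livers was 0.08, against -0.03 with the 75th percentile, and none of the 3 falls in wild-type livers kept its call. Relative to the median of all genes, the diet differences of Mat1a, Gnmt and Bhmt in wild-type livers were -1.05, -0.93 and -1.36 with either scaling. Each scaling subtracts a single value per array, so that this sameness was fixed in advance and tests nothing. After quantile normalization the values were -0.90, -0.69 and -1.10.

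**Figure D1:**
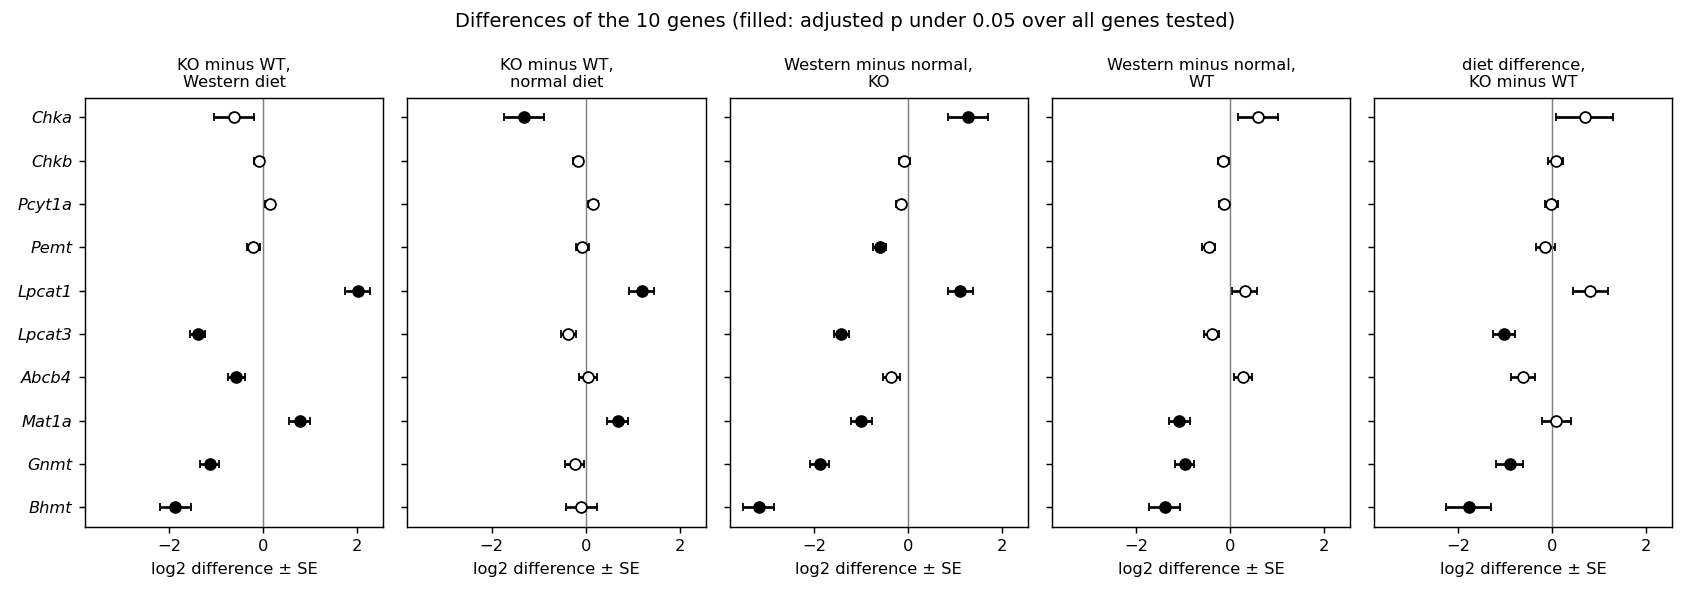
Log2 differences (points) with SE (bars) of the 10 genes in each comparison, filled where the adjusted p lay under 0.05. As measured, with part of its normal-diet spots saturated, Bhmt lay farthest below 0 for Western minus normal diet in knockout livers (-3.17), and Lpcat1 farthest above 0 for knockout minus wild-type livers on Western diet (2.00).

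The choline kinases open the Kennedy pathway. Chka, choline kinase alpha, was read by 4 probes, of which the brightest lies on chromosome 19 (3893815 to 3893874, mm8). Its level was 2.25, 2.83, 2.38, 2.02 and 3.24 in knockout livers on Western diet, against 3.49, 3.22, 3.1, 2.82 and 3.17 in wild-type livers on Western diet. On normal diet it was 0.65, 0.13, 0.42, 2.90 and 2.20 in knockout livers, against 3.35, 1.94, 2.59, 2.45 and 2.48 in wild-type livers. Among knockout livers on normal diet, 3 lay well below every wild-type liver and the other two lay within the wild-type range. Chka was lower in knockout than in wild-type livers on normal diet by -1.30 ± 0.43 (adjusted p = 0.0378), and higher on Western than on normal diet in knockout livers by 1.28 ± 0.43 (adjusted p = 0.0174). The genotype call was made by 1 of the 4 probes (18.5% of all probes were called), and the difference ran from -3.22 to 0.31 within 4 slides. It was lost with the mean of all probes (adjusted p = 0.204), with the slide as a block (adjusted p = 0.0737), and on leaving out knockout mouse 1, 2 or 3 or wild-type mouse 1, 3, 4 or 5 on normal diet (adjusted p up to 0.106). The genotype call was also lost without a filter on dim probes, with only the 2 groups in the fit and with the normexp background correction fitted on all spots. The diet call was made by 3 of the 4 probes (50.9% of all probes were called), and the 4 values ran from 0.97 to 1.40. Within 5 slides, however, the diet difference in knockout livers ran from -0.88 to 2.7, with 1 slide below 0, and the groups overlapped. The diet call was lost with only the 2 groups in the fit (adjusted p = 0.0684) and without knockout mouse 2 or 3 on normal diet (adjusted p up to 0.0587).

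Chkb, choline kinase beta, averaged 2.71 ± 0.13 in knockout and 2.80 ± 0.08 in wild-type livers on Western diet, and 2.78 ± 0.19 in knockout and 2.95 ± 0.21 in wild-type livers on normal diet (SD, n = 5 each). Its brighter probe (chromosome 15, 89254404 to 89254612) passed the test in no comparison. The other Chkb probe (89255394 to 89255575) was lower in knockout than in wild-type livers on Western diet, by -0.45 ± 0.12 (adjusted p = 0.00363, with 58.8% of all probes called). In knockout livers it was lower on Western than on normal diet, by -0.37 ± 0.12 (adjusted p = 0.0153). The 2 probes disagreed on whether the gene was called.

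Pcyt1a encodes the enzyme that makes CDP-choline, the rate-limiting step of the Kennedy pathway. Its brighter probe (chromosome 16, 32394326 to 32394385) averaged 0.74 ± 0.15 in knockout and 0.61 ± 0.15 in wild-type livers on Western diet, and 0.90 ± 0.15 in knockout and 0.74 ± 0.08 in wild-type livers on normal diet (SD). None of its 5 differences was called, and they lay between -0.16 and 0.16. The other Pcyt1a probe (32386929 to 32389818) carries a RefSeq accession in the files, and the brighter one that of a cDNA clone. It read -0.79 ± 0.73 in knockout livers on Western diet against 0.21 ± 0.34 in knockout livers on normal diet (SD), a difference of -1.0 ± 0.27 (adjusted p = 0.00458). Between the genotypes on Western diet that probe gave -0.57 ± 0.27 (adjusted p = 0.0777), where the brighter probe gave 0.13 ± 0.10.

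**Figure D2:**
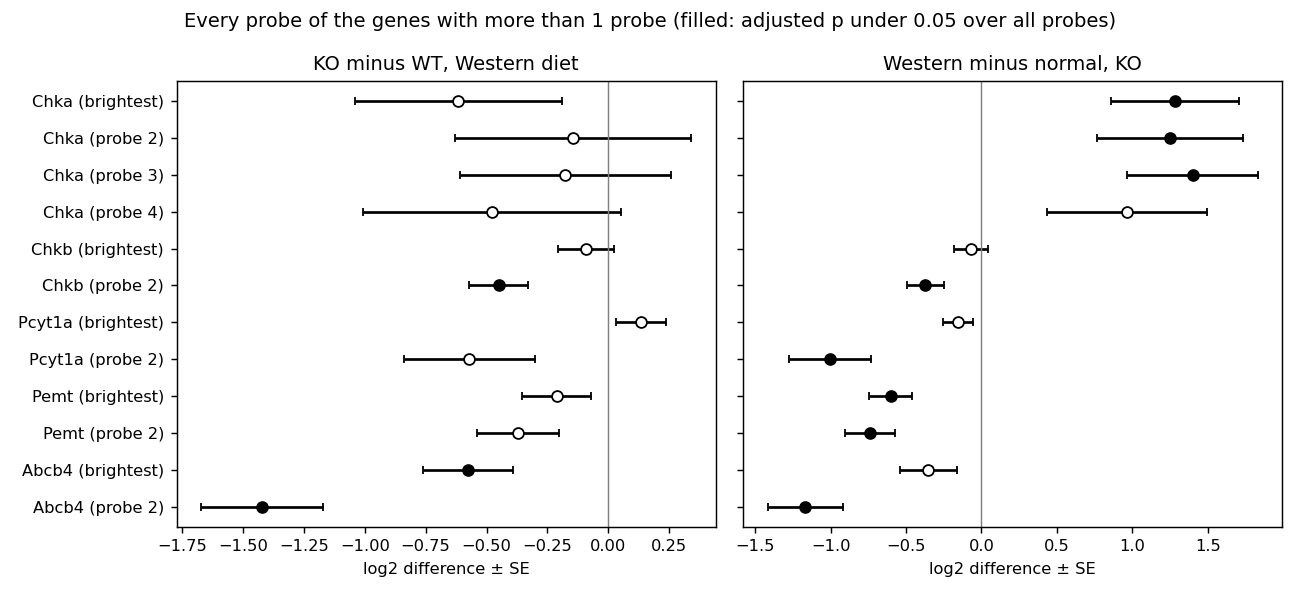
Log2 difference (points) with SE (bars) of the 12 probes of the 5 genes with more than 1 probe, for knockout minus wild-type livers on Western diet (left) and Western minus normal diet in knockout livers (right), filled where the adjusted p over all probes lay under 0.05. For diet in knockout livers, 1 of 2 probes of Chkb, Pcyt1a and Abcb4 was called, both of Pemt and 3 of 4 of Chka, where 50.9% of all probes were called.

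Pemt encodes the methyltransferase of the second route to phosphatidylcholine, which is found mainly in hepatocytes. Its level (probe on chromosome 11, 59786971 to 59787030) was 3.74, 4.31, 3.92, 4.16 and 4.15 in knockout livers on Western diet, against 4.57, 4.55, 4.6, 4.79 and 4.77 in knockout livers on normal diet. Every knockout liver on Western diet lay below every one on normal diet, and Pemt fell by -0.60 ± 0.14 (adjusted p = 0.00163), with both its probes called (-0.60 and -0.74) and all 5 slides below 0. This call was lost with normexp fitted on all spots (adjusted p = 0.388), and under the alternatives the difference ran from -0.67 to -0.302. Wild-type livers read 4.42, 4.25, 3.97, 4.35 and 4.34 on Western diet against 4.47, 4.70, 4.46, 5.21 and 4.76 on normal diet. Those groups did not overlap either, but the difference of -0.45 ± 0.14 did not pass the test (adjusted p = 0.0647). The second probe gave -0.46 ± 0.17 there (adjusted p = 0.133), with 5.11% of all probes called. The diet differences of the genotypes differed by -0.15 ± 0.20 (adjusted p = 0.652).

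Lpcat1 and Lpcat3 are lysophosphatidylcholine acyltransferases of the Lands cycle, in which a fatty acid of a finished phospholipid is removed and replaced. LPCAT1 prefers saturated acyl chains and is best known from lung surfactant, and LPCAT3 prefers polyunsaturated ones. On Western diet the genes went in opposite directions in the knockout. Lpcat1 (probe on chromosome 13, 73981747 to 73981806) was at -1.61, -1.67, -1.80, -2.33 and -1.92 in knockout livers on Western diet, against -3.33, -3.70, -4.45, -3.86 and -4.00 in wild-type livers on Western diet. On normal diet Lpcat1 was at -2.52, -3.11, -3.47, -3.12 and -2.70 in knockout livers, against -4.83, -4.74, -3.58, -3.59 and -4.16 in wild-type livers. Knockout and wild-type livers did not overlap on either diet.

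Lpcat1 was higher in knockout than in wild-type livers by 2.00 ± 0.26 on Western diet (adjusted p = 3.63e-06) and by 1.20 ± 0.26 on normal diet (adjusted p = 0.00337), and every slide with both genotypes gave a value above 0 (1.73 to 2.12 and 0.46 to 1.72). The Western diet raised it in knockout livers, by 1.12 ± 0.26 (adjusted p = 0.00165), while the difference in wild-type livers was 0.31 ± 0.26 (adjusted p = 0.55). These diet differences differed by 0.81 ± 0.37, which did not pass the test (adjusted p = 0.119) but did in the deposited matrix (0.61, adjusted p = 0.0119). The signal was dim: on normal diet 3 of 5 wild-type arrays read it well above background, and all 5 arrays did in each other group. That flag does not by itself show expression. In knockout livers the deleted Nr1h3 and Nr1h2 carried it on 4 or 5 of 5 arrays per group. Their levels there ran from -5.75 to -3.57, and wild-type Lpcat1 ran from -4.83 to -3.33. The size of the Lpcat1 differences therefore hung on the background correction. With the normexp correction and an offset of 50, fitted without outlier spots, the genotype difference was 0.73 on Western diet (adjusted p = 1.02e-05) and 0.21 on normal diet (adjusted p = 0.23), and the diet differences differed by 0.53 (adjusted p = 0.0156). With normexp fitted on all spots, every Lpcat1 call was lost: the genotype difference was 0.34 on Western diet (adjusted p = 0.492) and 0.32 on normal diet (adjusted p = 0.89), and the diet difference in knockout livers 0.017 (adjusted p = 0.975).

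Lpcat3 (probe on chromosome 6, 124668975 to 124669143) was at 1.14, 0.68, 0.94, 1.51 and 1.09 in knockout livers on Western diet, against 2.28, 2.73, 2.18, 2.52 and 2.64 in wild-type livers on Western diet. On normal diet it was at 2.35, 2.92, 2.44, 2.29 and 2.45 in knockout livers, against 2.73, 2.82, 2.63, 3.17 and 2.93 in wild-type livers. The 5 knockout livers on Western diet lay below all 15 others, whose groups overlapped on normal diet. Lpcat3 fell to a ratio of 0.38 in knockout over wild-type livers on Western diet (-1.40 ± 0.16, adjusted p = 7.17e-07), with values of -1.79 to -0.67 within 4 slides. On normal diet the genotype difference was -0.36 ± 0.16 and did not pass the test (adjusted p = 0.121), but it did without knockout mouse 2 (-0.47, adjusted p = 0.0464). In knockout livers Lpcat3 was lower on Western than on normal diet by -1.42 ± 0.16 (adjusted p = 9.39e-07), against -0.39 ± 0.16 in wild-type livers (adjusted p = 0.183), and the diet differences differed by -1.03 ± 0.23 (adjusted p = 0.00239).

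Because Lpcat3 is a known LXR target, its promoter is shown beside these values, from 250 bases before to 50 after the RefSeq start (GRCm38.p6, chr6:124662854-124663153, plus strand). Of the 10 genes, 9 have such a window in the RefSeq table. Receptor dimers with RXR bind a pair of AGGTCA-like hexamers spaced by 4 bases, searched on both strands as AGGTCA, 4 bases of any kind and AGGTCA again. The best match in the Lpcat3 window had 4 mismatches, a match that 76.9% of 32851 promoters hold, and the window holds no exact AGGTCA, which 16.3% hold. Neither says anything about binding outside these 300 bases.
Lpcat3: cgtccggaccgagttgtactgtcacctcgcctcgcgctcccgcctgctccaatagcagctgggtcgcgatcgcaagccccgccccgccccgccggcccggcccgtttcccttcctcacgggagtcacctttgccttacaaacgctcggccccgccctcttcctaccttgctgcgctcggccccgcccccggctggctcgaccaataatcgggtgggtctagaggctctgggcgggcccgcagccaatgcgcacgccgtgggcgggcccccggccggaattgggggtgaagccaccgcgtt

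Abcb4 encodes the canalicular floppase that moves phosphatidylcholine into bile. Its brighter probe (chromosome 5, 8965114 to 8965173) was at 5.92, 6.31, 6.25, 6.15 and 6.43 in knockout livers on Western diet, against 6.52, 6.47, 6.93, 7.29 and 6.73 in wild-type livers on Western diet. On normal diet it was at 6.85, 7.11, 6.56, 6.12 and 6.17 in knockout livers, against 6.62, 6.50, 6.26, 6.63 and 6.56 in wild-type livers. The groups were apart on Western diet and overlapped on normal diet. Abcb4 fell in knockout against wild-type livers on Western diet by -0.58 ± 0.19 (adjusted p = 0.0127), with values of -0.86 to -0.23 within 4 slides. After quantile normalization the difference was -0.18 (adjusted p = 0.42), and in the deposited matrix -0.22 (adjusted p = 0.298). The second probe (8946962 to 8947021) gave -1.42 ± 0.25 for the same comparison (adjusted p = 8.67e-05), -1.17 ± 0.25 for diet in knockout livers (adjusted p = 0.000744) and -1.37 ± 0.35 for the difference between the diet differences (adjusted p = 0.0075, with 27% of all probes called). For the last comparison the brighter probe gave -0.62 ± 0.26 (adjusted p = 0.0869).

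**Figure D3:**
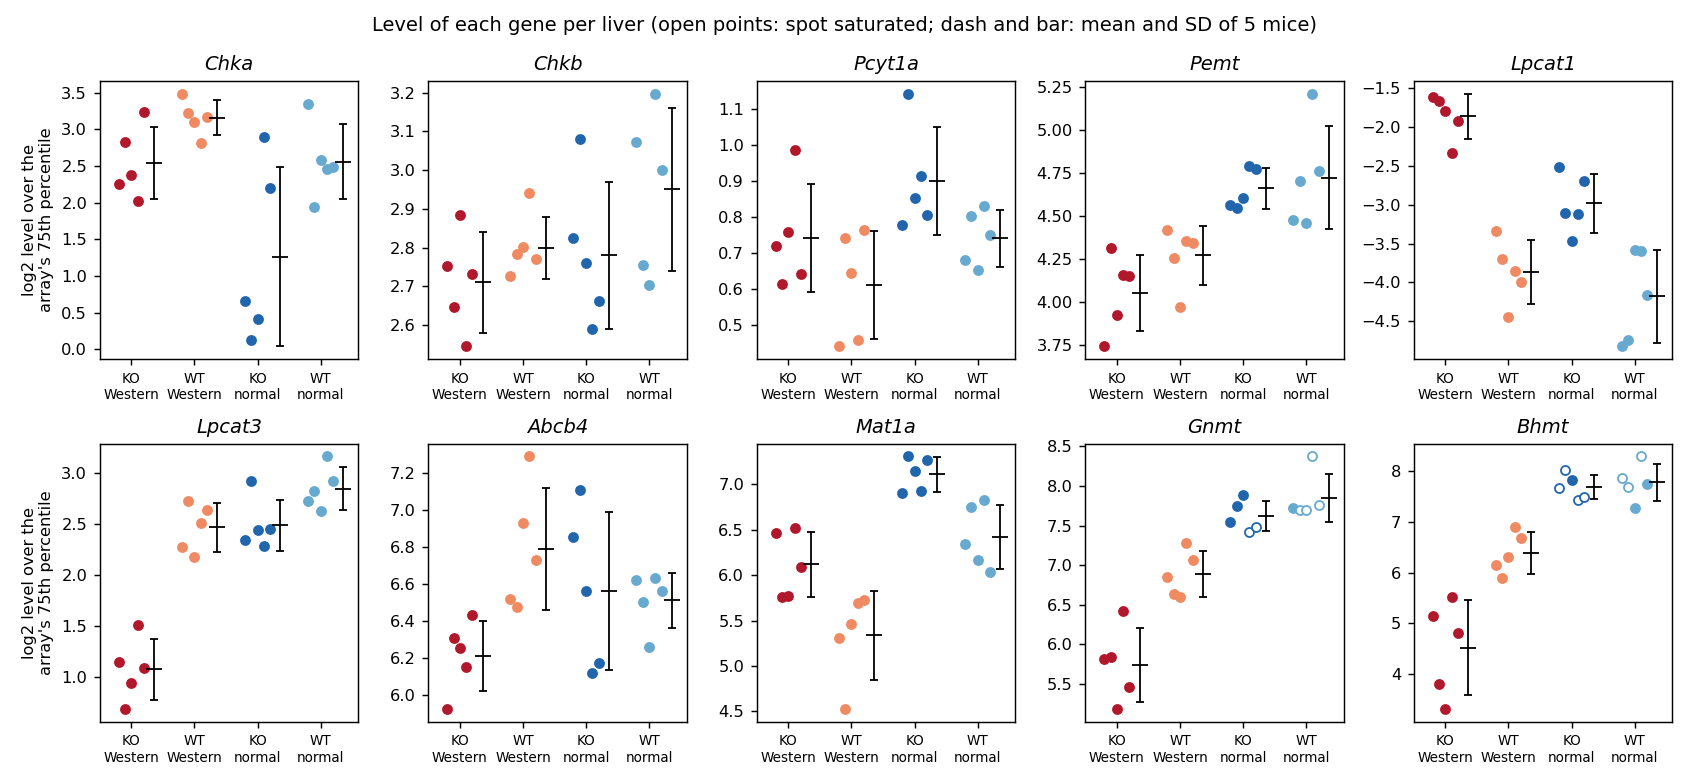
Level of each gene in each liver (points), log2 of the signal over the 75th percentile of the array, with the mean and SD of 5 mice (dash and bar) and saturated spots as open points. KO is the double knockout and WT wild type. Lpcat3, Gnmt and Bhmt had their lowest values in knockout livers on Western diet (down to 0.68, 5.18 and 3.31), and Lpcat1 its highest (up to -1.61).

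Mat1a encodes the liver's S-adenosylmethionine synthetase. Its level (probe on chromosome 14, 40032564 to 40032623) was 6.46, 5.76, 5.77, 6.52 and 6.09 in knockout livers on Western diet, against 5.31, 4.53, 5.46, 5.69 and 5.73 in wild-type livers on Western diet. On normal diet it was 6.91, 7.31, 7.15, 6.92 and 7.27 in knockout livers, against 6.34, 6.75, 6.16, 6.83 and 6.03 in wild-type livers. No pair of compared groups overlapped. Mat1a was higher in knockout than in wild-type livers by 0.78 ± 0.22 on Western diet (adjusted p = 0.0062) and by 0.69 ± 0.22 on normal diet (adjusted p = 0.0372), and lower on Western than on normal diet in both genotypes, by -0.99 ± 0.22 in knockout livers (adjusted p = 0.00119) and -1.08 ± 0.22 in wild-type livers (adjusted p = 0.00628). Its diet differences differed by 0.09 ± 0.32 (adjusted p = 0.88). All slides with both groups gave these directions. The call on normal diet was lost with median scaling (adjusted p = 0.134), with the slide as a block (adjusted p = 0.0672) and without knockout mouse 2, 3 or 5 or wild-type mouse 1, 3 or 5 (adjusted p up to 0.0977), and the diet call in knockout livers with quantile normalization (-0.51, adjusted p = 0.0563). Without a filter on dim probes the call on normal diet was lost too, and with normexp fitted on all spots every Mat1a call was lost.

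Gnmt encodes glycine N-methyltransferase, an abundant hepatocyte enzyme that consumes S-adenosylmethionine. Gnmt (probe on chromosome 17, 46189136 to 46189284) was at 5.82, 5.85, 5.18, 6.42 and 5.46 in knockout livers on Western diet, against 6.85, 6.64, 6.60, 7.28 and 7.06 in wild-type livers on Western diet. On normal diet Gnmt was at 7.55, 7.74, 7.89, 7.41 and 7.49 in knockout livers, against 7.72, 7.70, 7.69, 8.38 and 7.76 in wild-type livers. The genotypes were apart on Western diet and overlapped on normal diet, and in each genotype the diets were apart. The Western diet lowered Gnmt by -1.87 ± 0.20 in knockout livers (adjusted p = 5.39e-07) and by -0.96 ± 0.20 in wild-type livers (adjusted p = 0.00678), and these differed by -0.91 ± 0.29 (adjusted p = 0.0237). On Western diet Gnmt was lower in knockout than in wild-type livers by -1.14 ± 0.20 (adjusted p = 9.73e-05). With median scaling the test of the difference between diet differences was lost for Gnmt (adjusted p = 0.0633).

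Bhmt encodes betaine-homocysteine methyltransferase, another abundant hepatocyte enzyme. Its level (probe on chromosome 13, 94720852 to 94720911) was 5.14, 3.80, 3.31, 5.52 and 4.80 in knockout livers on Western diet, against 6.14, 5.89, 6.31, 6.91 and 6.69 in wild-type livers on Western diet. On normal diet it was 7.66, 8.02, 7.83, 7.43 and 7.49 in knockout livers, against 7.88, 7.69, 7.27, 8.29 and 7.76 in wild-type livers. On Western diet the SD over mice was 0.93 in knockout and 0.41 in wild-type livers, so that the lowest group was also the most spread. Bhmt was lower on Western than on normal diet by -3.17 ± 0.33 in knockout livers, a ratio of 0.111 (adjusted p = 3.98e-07), and by -1.39 ± 0.33 in wild-type livers, a ratio of 0.382 (adjusted p = 0.0173). These diet differences differed by -1.78 ± 0.47 (adjusted p = 0.00859). On Western diet it was lower in knockout than in wild-type livers by -1.87 ± 0.33 (adjusted p = 0.000103), and on normal diet, where both groups held saturated spots, the measured difference was -0.09 ± 0.33 (adjusted p = 0.877).

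All slides with both groups gave measured falls of Bhmt and Gnmt with diet in either genotype and with genotype on Western diet, from -4.52 to -0.18. The difference between the diet differences was below 0 on 3 of 3 slides for Bhmt and on 2 of 3 for Gnmt (up to 0.10). The fall of Bhmt in wild-type livers lost its call without mouse 2 on Western diet or mouse 4 on normal diet (adjusted p up to 0.0561) and with quantile normalization (adjusted p = 0.0704). That call was also lost with median scaling, with normexp fitted on all spots and in the deposited matrix. Spots of both genes were saturated on part of the normal-diet arrays, for Bhmt on 4 of 5 knockout and 3 of 5 wild-type arrays and for Gnmt on 2 of 5 knockout and 4 of 5 wild-type arrays, and on no Western-diet array. A saturated spot gives only a lower limit of its level. The diet differences of both genes and their ratios are thus falls of at least about the measured size, and their genotype differences on normal diet are not measured sizes. The difference between the diet differences takes in the same spots, and for Gnmt more wild-type than knockout spots were saturated, which moves its value in the direction reported, so that these values for Gnmt and Bhmt hold as measured signals only. The sizes of the genotype differences on Western diet rest on no saturated spot. Their SE and adjusted p come from the fit of all 4 groups, whose spread takes in the saturated spots. With only the 2 compared groups in the fit, both genes were still called.

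Bhmt and Gnmt fell in the same 3 comparisons of groups, and their RefSeq promoter windows (GRCm38.p6, 250 bases before to 50 after the start) are shown for that reason. The Bhmt window is chr13:93637709-93638008 and the Gnmt window chr17:46729116-46729415, both on the minus strand and written 5′ to 3′ of the gene. Capitals mark exact matches of AGGTCA on either strand (TGACCT is the same hexamer on the other strand). Bhmt holds 3, at -234, -72 and -47 bases from the start, and 0.183% of 32851 promoters hold at least 3. Gnmt holds 1, at -181 bases from the start. With 1 base between the hexamers (AGGTCA, any base, AGGTCA, the spacing that HNF4 alpha and PPAR dimers bind), Bhmt has 2 matches with 2 mismatches, and 3.86% of promoters hold such a match or a better one. The hexamers at -72 and -47 lie within these matches. In the Gnmt window no match of this spacing with up to 3 mismatches was found, where 24.6% of promoters hold one. With the 4-base spacing searched in Lpcat3, the best matches of Bhmt and of Gnmt had 4 mismatches, which 76.9% of promoters hold. A match of letters is a description of the window and not evidence of binding.
Bhmt: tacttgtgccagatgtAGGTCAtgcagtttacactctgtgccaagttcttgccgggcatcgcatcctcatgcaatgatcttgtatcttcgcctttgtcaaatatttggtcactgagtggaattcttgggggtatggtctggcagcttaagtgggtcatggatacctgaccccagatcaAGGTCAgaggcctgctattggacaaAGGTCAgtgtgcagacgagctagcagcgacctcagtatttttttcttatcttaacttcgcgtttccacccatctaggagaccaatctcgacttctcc
Gnmt: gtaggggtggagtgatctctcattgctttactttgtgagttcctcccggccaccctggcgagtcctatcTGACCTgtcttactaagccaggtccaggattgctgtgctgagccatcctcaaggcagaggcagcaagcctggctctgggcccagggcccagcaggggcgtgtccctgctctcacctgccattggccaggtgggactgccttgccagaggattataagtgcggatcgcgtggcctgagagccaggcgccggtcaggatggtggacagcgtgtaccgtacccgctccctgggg

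Most other genes of the methionine cycle and the methyltransferases fell with diet in knockout livers. Of 17 other methionine-cycle and methyltransferase genes, 13 fell and 1 rose on Western against normal diet in knockout livers (median -0.92, against -0.12 over all genes), and 2 fell and 1 rose in wild-type livers (median -0.26). Of all genes, 27.8% fell and 22.6% rose with diet in knockout livers, and 2.71% fell and 3.25% rose in wild-type livers. Between the genotypes on Western diet 9 of the 17 fell and 2 rose, against 32.7% and 25% of all genes. Inmt, an indolethylamine methyltransferase, fell most: its mean was -0.12 in knockout livers on Western diet, against 6.41 in wild-type livers on Western diet and 4.81 in knockout livers on normal diet. The Inmt difference was -6.53 ± 0.53 between genotypes on Western diet (adjusted p = 1.05e-08). Cbs, which commits homocysteine to cysteine, was lower by -2.24 (adjusted p = 4.73e-09) in the same comparison.

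With diet in knockout livers, Cth, the next enzyme after Cbs, fell by -1.62 (adjusted p = 1.16e-05, with 4 of 5 arrays on normal diet, since outlier spots were dropped) and Ahcy, which clears S-adenosylhomocysteine, by -1.51 (adjusted p = 3.3e-06, with 2 of 5 normal-diet spots saturated). Bhmt2, the paralog of Bhmt that uses S-methylmethionine, fell by -1.40 (adjusted p = 0.00326), but the dropped spots left it 3 arrays on Western and 2 on normal diet. In wild-type livers Bhmt2 gave -0.47 with 2 arrays on each diet (adjusted p = 0.437). Mat2a, the form of the synthetase that cells outside the adult hepatocyte use, was the gene that rose, by 0.35 (adjusted p = 0.0413), where Mat1a fell. Gamt, which makes creatine with S-adenosylmethionine, fell with diet in both genotypes, by -1.15 in knockout livers (adjusted p = 1.84e-05) and -1.37 in wild-type livers (adjusted p = 5.84e-05). Mtr and Mtrr, the folate-dependent methionine synthase and its reductase, were called in no comparison.

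Of 17 genes of choline oxidation and one-carbon metabolism, 11 fell and 3 rose on Western against normal diet in knockout livers (median -1.20). Of all genes, 27.8% fell and 22.6% rose there. Between the genotypes on Western diet 12 of the 17 fell and 3 rose (median -0.89), against 32.7% and 25% of all genes. In wild-type livers 4 of the 17 fell and 1 rose with diet, against 2.71% and 3.25% of all genes. However, the number that fell was 1 without mouse 2 on Western diet or mouse 4 on normal diet, 2 without mouse 3 on Western diet, and 0 with median scaling or with normexp on all spots. Aldh7a1, which oxidises betaine aldehyde, fell by -2.75 (adjusted p = 2.39e-08) in knockout livers with diet. Dmgdh, which strips a methyl group from the product of Bhmt, fell there by -2.31 (adjusted p = 1.94e-07, with 4 of 5 arrays on Western diet). Sardh, which acts on the product of Dmgdh, fell there by -1.90 (adjusted p = 8.59e-07), and the folate enzyme Aldh1l1 by -1.87 (adjusted p = 1.39e-07). Chdh, which starts choline oxidation, fell by -0.66 (adjusted p = 0.0372). Mthfd1l, a mitochondrial folate enzyme, rose in all 4 comparisons of groups, by 1.23 to 1.99, and Mthfd2, its partner, rose by 1.36 with diet in knockout livers (adjusted p = 0.000181).

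**Figure D4:**
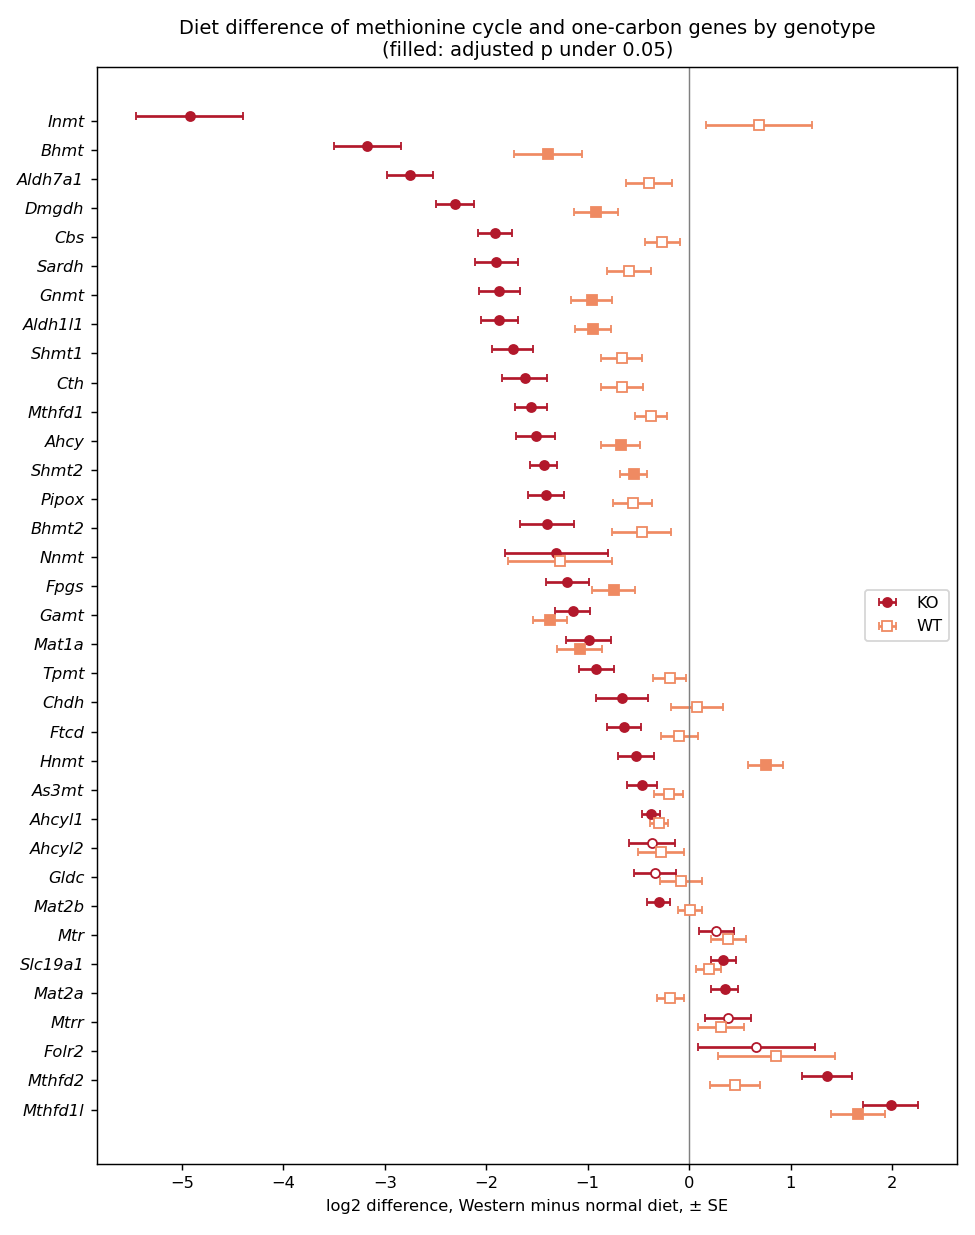
Log2 difference of Western minus normal diet (points) with SE (bars) in knockout (KO, circles) and wild-type (WT, squares) livers for Mat1a, Gnmt, Bhmt and 32 other genes of these lists, sorted by the knockout value and filled where the adjusted p lay under 0.05. As measured, Inmt and Bhmt had the lowest knockout values (-4.93 and -3.17, with Bhmt saturated on 4 of 5 normal-diet arrays), and Mat1a and Gamt lay at like values in both genotypes.

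In the rest of phosphatidylcholine and phosphatidylethanolamine synthesis, 10 of 14 genes tested fell and 3 rose in knockout against wild-type livers on Western diet (median -0.68). Of all genes, 32.7% fell and 25% rose in that comparison. With diet in knockout livers 8 of the 14 fell and 2 rose (median -0.50), against 27.8% and 22.6% of all genes. Chpt1, the cholinephosphotransferase that ends the Kennedy pathway, was lower by -1.70 between genotypes on Western diet (adjusted p = 1.46e-07) and by -2.04 with diet in knockout livers (adjusted p = 2.92e-08). Slc44a2, a choline transporter-like protein, rose by 1.93 between genotypes on Western diet (adjusted p = 1.18e-06) and by 1.65 on normal diet (adjusted p = 5.84e-05). Pcyt1b, the paralog of Pcyt1a, did not pass the filter on dim signals.

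Of 18 other genes tested of the Lands cycle and phospholipases, 8 fell and 7 rose between the genotypes on Western diet (32.7% and 25% of all genes). With diet in knockout livers 7 fell and 6 rose (27.8% and 22.6% of all genes). Mboat1, a relative of Lpcat3 that acts on phosphatidylserine, rose by 2.68 in knockout against wild-type livers on Western diet (adjusted p = 1.27e-06). With diet it rose by 1.99 in knockout livers (adjusted p = 5.13e-05) and fell by -1.25 in wild-type livers (adjusted p = 0.0268), and the diet differences differed by 3.24 (adjusted p = 5.36e-05). Lpcat2, the acyltransferase of inflammatory cells that also makes platelet-activating factor, was higher by 1.87 between genotypes on Western diet (adjusted p = 1.79e-06) and by 0.88 on normal diet (adjusted p = 0.0112). Pla2g6, a calcium-independent phospholipase, was lower by -1.83 (adjusted p = 5.69e-09) and Pnpla7, a lysophospholipase, by -1.53 (adjusted p = 4.92e-08) on Western diet. Lcat, which esterifies plasma cholesterol with a fatty acid of phosphatidylcholine, fell by -1.28 with diet in knockout livers (adjusted p = 2.74e-07).

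Among 11 genes of phospholipid transport, 5 fell and 2 rose between the genotypes on Western diet and again with diet in knockout livers. Of all genes, 32.7% fell and 25% rose in the first comparison, and 27.8% fell and 22.6% rose in the second. Tmem30a, the partner of the P4-ATPase flippases, was lower by -1.23 between genotypes on Western diet (adjusted p = 6.83e-07). Pctp, the phosphatidylcholine transfer protein, fell with diet in both genotypes, by -1.09 in knockout livers (adjusted p = 8.17e-05) and -1.24 in wild-type livers (adjusted p = 0.000396). Abcb1a, a drug efflux pump related to Abcb4, rose by 2.42 between genotypes on Western diet (adjusted p = 1.05e-05).

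Markers of several liver cell types differed in the same comparisons. All 13 hepatocyte markers tested were well above background. Between the genotypes on Western diet 11 of 13 fell (32.7% of all genes), and with diet in knockout livers 12 of 13 (27.8% of all genes). However, 3 of them (Alb, Fgb and Ahsg) were saturated on all 20 arrays, so that their scaled values carry no measured difference. Over the 5 hepatocyte markers with a value and no saturated spot on every array, a restriction made after seeing the data, 4 fell between genotypes on Western diet and 5 with diet in knockout livers (medians -0.95 and -1.16). The summed linear level of these 5 ran from 170 to 266 in knockout livers on Western diet, 299 to 421 in wild-type livers on Western diet, 390 to 518 in knockout livers on normal diet and 404 to 620 in wild-type livers on normal diet. Hnf4a, a transcription factor of hepatocytes, was lower by -0.95 ± 0.17 (adjusted p = 0.000102) between the genotypes on Western diet, where Bhmt gave -1.87 and Mat1a 0.78.

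Of 15 macrophage markers, 11 rose and 3 fell between genotypes on Western diet (25% and 32.7% of all genes). With diet in knockout livers 11 rose and 1 fell (22.6% and 27.8% of all genes). Those that fell between genotypes were Clec4f (-8.10), Vsig4 (-3.56) and Timd4 (-3.35), which mark the liver's resident macrophages, the Kupffer cells, and Clec4f was also the one that fell with diet (-3.73). The 12 macrophage markers with a value and no saturated spot on every array summed to 156 to 239 in knockout livers on Western diet, against 18.1 to 90 in wild-type livers on Western diet, 10 to 47.2 in knockout livers on normal diet and 17.4 to 37.3 in wild-type livers on normal diet. Stellate cell markers rose in 9 of 10 cases in each of these comparisons, and bile duct markers in 6 of 7 between genotypes and 7 of 7 with diet. Of these bile duct markers, Cftr was well above background on 5 arrays of knockout livers on Western diet and on 0 in each other group. It passed the filter only through the group where it was high, so that its 2 rises were favoured by the filter and add no support. Lymphocyte markers were mixed, with 2 higher and 2 lower of 9 between genotypes and 3 lower with diet, as were endothelial markers, with 2 higher and 1 lower of 8 between genotypes and 2 higher and 4 lower with diet.

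On normal diet, where Lpcat1 and Mat1a rose in knockout livers, 1 of 13 hepatocyte markers fell (0 without knockout mouse 1 or 2 or wild-type mouse 1, 4 or 5 on normal diet, and 2 without knockout mouse 4 on Western diet), and of 15 macrophage markers 5 rose (4 to 8, with 8 without knockout mouse 4) and 1 fell. There 4 of 9 lymphocyte, 2 of 7 bile duct, 2 of 10 stellate cell and 2 of 8 endothelial markers rose. The 2 bile duct markers were Epcam and Cftr. Cftr was well above background on 0 normal-diet arrays of either genotype, so that its call there compared signals near background. Of all genes, 11.3% rose and 8.39% fell in that comparison. The part of the cell make-up in the differences of the 10 genes was not tested.

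For each gene called at least once, the 3 genes nearest in pattern were taken by the root mean square difference of centred log2 levels over 20 arrays, which all share the same scaling. Nearest to Bhmt was Cyp2e1 (0.323), also among the hepatocyte markers and, like Bhmt, saturated on part of the normal-diet arrays, and to Gnmt Slco1b2 (0.213), an uptake carrier of hepatocytes, and Aldh1l1 (0.229). Lpcat3 lay nearest to Hsd17b12 (0.164), Pemt to Naxe (0.144), Mat1a to Tenm3 (0.308) and Lpcat1 to Far1 and Epb41l2 (0.265 each). Abcb4 lay nearest to Abcb1b (0.164), a drug pump of the same family. Among the 3 genes nearest to Chka were Lgalsl (0.488) and Tubb2a (0.504).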

How the data were processed

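Liver RNA of 20 mice was hybridised to single-colour Agilent arrays. Per the file headers, the deposited processed intensity was background-subtracted and detrended by Feature Extraction 9.5, and the deposited raw mean, median and background intensities and the 0 or 1 flags come from the same scans. The submitters' processing notes also name limma, without a version. The deposited matrix holds log2 values of 24493 probes. It follows the log2 median signal on each array (r of at least 0.998, column medians 7.73 to 7.78), and its normalization between arrays and its choice of probes are not given in the sources used here.

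From these files, control spots and outlier spots were left out, the spots of a probe averaged, and log2 of the processed intensity minus the array's 75th percentile was tested with limma 3.58.1 in R 4.3.3. All 4 groups entered one fit. Genes had to lie well above background on 4 of 5 arrays of at least 1 group, which left 17552 genes, and p-values were adjusted by Benjamini-Hochberg within each of 5 comparisons at 0.05. The script was tested on simulated data. Probe positions are those of the files (mm8), and promoters are RefSeq's (GRCm38.p6), so that these coordinates are not interchangeable. Named genes are the 10 members, genes of the listed pathways and, for each called member, the 3 nearest by pattern. The members and lists were chosen with earlier results of these data known, and the lists leave the members out. Some genes of the lists enter the counts but are not reported singly here. The mice of a group are numbered in the labels. The labels do not say that a number marks a litter or batch, and the numbers were not taken as pairs. Alternatives were other scalings, background corrections, filters, probe rules, variance models and blocks, and leaving out each array.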

Additional observations from a re-analysis of the deposited data

Results flagged for a closer look

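Gnmt in wild-type mouse 4 on normal diet read 8.38, and the gap to the next mouse was 0.9 of the range of that group. That spot was saturated, and its array had the lowest 75th percentile of the 20 arrays (170.3), by which the signal was divided. The value is therefore not a measured level. Lpcat3 in knockout mouse 2 on normal diet read 2.92, with a gap of 0.74 of its group's range. These were 2 values in 40 groups of 5 mice, and chance alone marks about 1 group in 20. The diet difference was lower in knockout than in wild-type livers, by a test of the difference itself, for Lpcat3 (-1.03), Gnmt (-0.91) and Bhmt (-1.78). For Gnmt and Bhmt part of the normal-diet spots were saturated, so that these are differences of measured signals and not exact sizes. No explanation of these values was tested.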

How the results depend on the processing

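Calls of Lpcat3, Gnmt and Bhmt between genotypes on Western diet and with diet in knockout livers held under every alternative run. Over all called differences of the 10 genes, 247 of 280 values under alternatives kept their call and 33 lost it, and with 1 array left out 423 of 440 kept it and 17 lost it. No called difference changed sign. Of the differences not called, 9 of 355 gained a call under alternatives, those of Lpcat1 (2), Abcb4 (2), Pemt (2), Chka, Chkb and Pcyt1a, and 4 of 560 with 1 array left out, those of Abcb4 (2), Lpcat3 and Pemt. The cause of lost calls was not tested. The number of the 10 genes called was 0 with median scaling for diet in wild-type livers, and 1 on normal diet between genotypes both without a filter on dim probes and with the slide as a block. With normexp fitted on all spots it was 0 between genotypes on normal diet, 3 on Western diet, 0 for diet in wild-type livers, 4 in knockout livers and 0 for the difference between diet differences. That fit put the background mean at -471.2 to -4.6. Without outlier spots, an alternative chosen after seeing the data, it was -6 to -2.7, with 1 call lost (Lpcat1 on normal diet) and 1 gained (Lpcat1 for the difference between diet differences). With 1 array left out the count ran from 1 to 3 between genotypes on normal diet (1 without knockout mouse 3 or wild-type mouse 1, 3 or 5), was 6 on Western diet, and ran from 2 to 4 for diet in wild-type livers.

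Some differences that were not called changed sign. Between genotypes on normal diet, Abcb4 was -0.003 with median scaling, -0.086 with normexp and 0 with the mean of all probes, Pemt was 0.01 with quantile normalization and 0.01 in the matrix, and Bhmt 0.063 and 0.119. On Western diet, Chkb was 0.067 with quantile normalization, 0.085 with normexp and 0.033 in the matrix, Pemt 0.05, 0.004 and 0.039, and Pcyt1a -0.218 with the mean of all probes. For diet, Lpcat1 in wild-type livers was -0.001 with normexp and -0.133 without outlier spots. In knockout livers Chkb was 0.035 with quantile normalization, 0.16 with normexp, 0.001 without outlier spots and 0.038 in the matrix, and Abcb4 0.16 with quantile normalization and 0.156 in the matrix. For the difference between diet differences, Pcyt1a was 0.002 with quantile normalization and 0.106 with normexp, Pemt 0.039, 0.189 and, in the matrix, 0.029, and Chkb -0.073 with the mean of all probes. With 1 array left out, Pemt ran from -0.131 to 0.056, Abcb4 from -0.088 to 0.159 and Bhmt from -0.217 to 0.04 between genotypes on normal diet. Chkb ran from -0.12 to 0.003 with diet in knockout livers, and Pcyt1a from -0.082 to 0.039 and Mat1a from -0.115 to 0.187 for the difference between diet differences.

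Of all genes, 1047 were called for diet in wild-type livers, against 554 with median scaling, 687 without wild-type mouse 1 and 668 without mouse 2 on Western diet. The difference between diet differences gave 4839, against 3217 with median scaling. Normexp on all spots called 509 between genotypes on normal diet and 4302 on Western diet, where 3460 and 10128 were called, 146 and 3571 for diet in wild-type and knockout livers, and 1014 for the difference. Without outlier spots 2287 were called on normal diet. Of the genes called for diet in wild-type livers, 54.5% were higher, against 66.2% with median scaling, 43.8% with normexp and 44.3% without outlier spots. Between genotypes on normal diet 57.5% were higher, against 47.7% without outlier spots. For diet in knockout livers 44.9% were higher, against 33.3% without outlier spots, and for the difference 46.7%, against 62.7% with normexp. Same-numbered mice correlated at -0.378 to 0.487, with every pair above 0.1 in no comparison, and the numbers were not taken as pairs. Same-numbered mice of a genotype shared a slide between the diets, except wild-type mouse 1. Between diets they correlated at 0.027 to 0.487 in wild-type livers (4 of 5 above 0.1) and at -0.041 to 0.452 in knockout livers (3 of 5). The main fit leaves the slide out. With the slide as a block, 10291 genes were called for diet in knockout livers, against 8845. With the replicate number as a block, Pemt for diet in wild-type livers was called (-0.454, adjusted p = 0.0396, limma), and no other call of the 10 genes changed. A fit of only the compared groups was not run for the difference between diet differences.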
